A study of Rattus norvegicus with 196 samples.

Results

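The periaqueductal gray (PAG) is the grey matter around the aqueduct of the midbrain, and the samples described here are its 8 bulk RNA-seq libraries out of 196 from 25 rat brain regions. They were chosen by label, as the PAG samples of fluoxetine-treated (FT) and control (Sham) rats. Both groups were male Long-Evans rats of 2 months at the start. FT rats drank water with fluoxetine at 18 mg/kg for 6 weeks and Sham rats drank water alone. Each group has 4 libraries with the replicate numbers 1, 3, 4 and 5, and each library came from tissue punches pooled over several animals, so no value belongs to a single rat. The comparison asks which transcripts of the PAG differ after chronic treatment with this antidepressant, and FT and Sham libraries of the same number were compared as pairs.

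Fluoxetine blocks the serotonin transporter and so prolongs the action of released serotonin. The PAG receives serotonin fibres from the raphe nuclei just below it, and it organises defensive behaviour and the descending control of pain through local GABA and glutamate neurons and opioid peptides. At its ventral edge lie the Edinger-Westphal neurons, which project centrally, respond to stress and make the peptides urocortin (Ucn) and CART (Cartpt). A punch cannot follow these borders exactly, so it can hold neighbouring cells, and in bulk tissue fewer cells of a type and less RNA per cell cannot be told apart.

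The values are read counts per Ensembl transcript. Gene names were available for 1844 of the 29188 transcripts, from a table of the study that lists transcripts called in several of its regions, so a named transcript is not independent of the study's own calls. Genes such as Tph2, Slc6a4, Oprm1 and Tac1 were not analysed by name here. Transcripts without a name stayed in the tests over all transcripts. Levels below are CPM, counts scaled to a common library size, after TMM scaling, which corrects for differences in composition between libraries, unless a sentence says otherwise, and values in a series follow replicates 1, 3, 4 and 5. Fold changes are log2FC, FT over Sham, from edgeR with the replicate number as a block.

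The libraries held between 4472503 and 19003719 counts on transcripts. Replicate 3 stood apart in both groups, with 72.7% of the Sham counts and 74.9% of the FT counts on the 50 most abundant transcripts, against 26.4% to 36.4% in the other 6 libraries. This was not particular to PAG. Over the whole series the median share was 68.2% in the 48 libraries of replicate 3. It was 34.8%, 29.9% and 28.3% in replicates 1, 4 and 5. The share of reads outside annotated transcripts was 54.1% in FT against 47.6% in Sham in replicate 4, and 53.6% against 40.9% in replicate 5. In replicates 1 and 3 it was lower in FT, at 25.6% against 29.3% and 46.5% against 48.7%. Replicates 4 and 5 are also the pairs with the most similar differences between FT and Sham, as given below. The part of these reads in the results was not tested.

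The label PAG was set against region markers. Slc17a6, the vesicular glutamate transporter of brainstem and diencephalic neurons, had a Sham median of 216 CPM of the library total and ranked number 8 of 25 regions, while CAMK2A, a kinase typical of forebrain neurons, was at 11.6 and ranked number 21. Ucn had its highest Sham median in PAG, at 7.48 CPM of the library total, followed by raphe at 4.73. Of 5 genes of cerebellar granule neurons, Gabra6, Cbln1, Cbln3 and Neurod1 had their highest Sham median in PAG, while Gabrd ranked number 4 of 25 regions. Gabra6, the GABA-A receptor subunit of those neurons, reached 89.4 CPM of the library total in Sham PAG (range 43.3 to 203), followed by LC at 25.0 and raphe at 2.50, and it was present in all 8 PAG libraries. Cbln3, another granule neuron gene, was at 10.7 in PAG, 6.67 in LC and 1.01 in raphe on the same scale. Cbln1 and Neurod1 were less particular to PAG. Cbln1 was at 84.0 in PAG and 82.45 in VMH, and Neurod1 at 83.7 in PAG and 56.0 in PVN. The Sham median of Gabra6 was 0.115 in VMH and 0.0937 in PVN. Cells of the cerebellum are no part of the PAG as labelled. The 5 genes were above 0 in each of the 8 PAG libraries. That alone does not mark cerebellar tissue, since Cbln1, Neurod1 and Gabrd had Sham medians above 0 in all 25 regions. Whether the punches held such tissue was not tested.

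**Figure D1:**
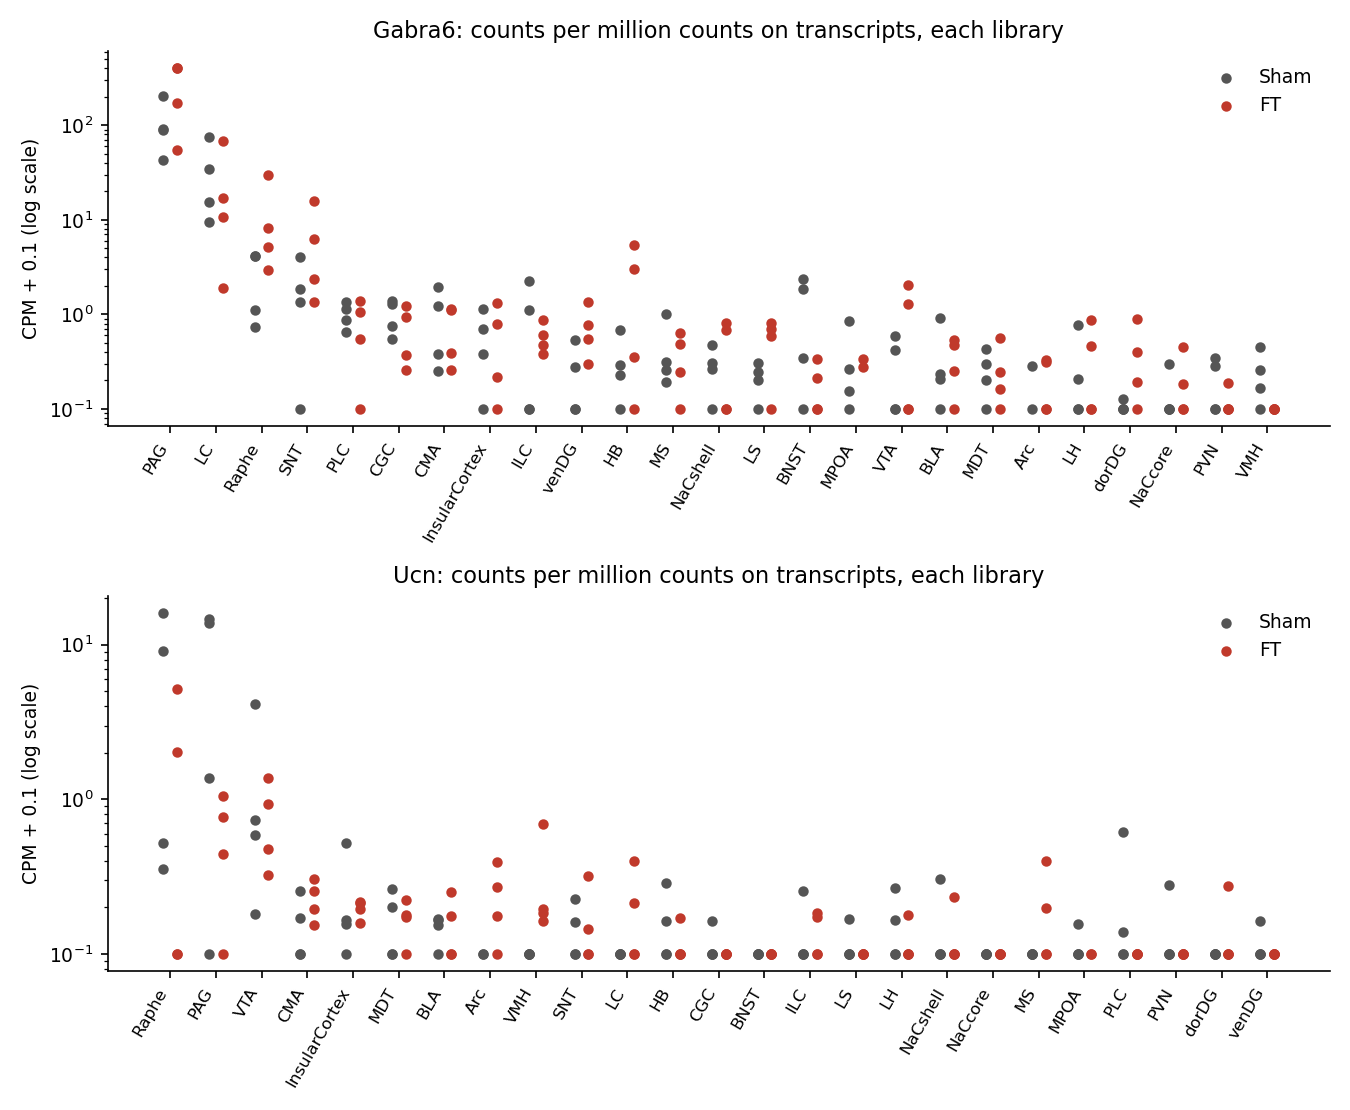
CPM of the library total of Gabra6 and Ucn in each library of 25 brain regions, on a log axis after adding 0.1, with Sham in grey and FT in red. Gabra6 stands at 43.3 CPM or more in every PAG library, and Ucn has its highest Sham median, 7.48 CPM, in PAG, with 1 library of each group at 0.

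The promoters of 3 genes described at length below are printed here, as the 250 bases before the start site, 5′ to 3′ on the gene's strand, from RefSeq on build GRCr8. Capitals in Ucn and Cartpt mark TGACGTCA, the cyclic AMP response element, and capitals in Gabra6 mark TGCCAA, which is TTGGCA, a nuclear factor I half-site, on the other strand. The windows are Ucn at chr6:30957836-30958085 on the plus strand, Cartpt at chr2:32991236-32991485 on the minus strand and Gabra6 at chr10:27327235-27327484 on the minus strand.
Ucn: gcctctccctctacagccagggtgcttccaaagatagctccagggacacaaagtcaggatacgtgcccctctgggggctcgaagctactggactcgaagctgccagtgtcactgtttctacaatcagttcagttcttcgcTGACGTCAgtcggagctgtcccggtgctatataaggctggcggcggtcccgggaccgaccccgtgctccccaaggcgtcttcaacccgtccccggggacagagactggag
Cartpt: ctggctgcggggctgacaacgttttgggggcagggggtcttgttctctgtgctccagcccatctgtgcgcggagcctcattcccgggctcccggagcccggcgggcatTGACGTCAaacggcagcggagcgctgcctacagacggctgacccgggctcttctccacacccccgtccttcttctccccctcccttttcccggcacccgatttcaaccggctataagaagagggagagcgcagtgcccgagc
Gabra6: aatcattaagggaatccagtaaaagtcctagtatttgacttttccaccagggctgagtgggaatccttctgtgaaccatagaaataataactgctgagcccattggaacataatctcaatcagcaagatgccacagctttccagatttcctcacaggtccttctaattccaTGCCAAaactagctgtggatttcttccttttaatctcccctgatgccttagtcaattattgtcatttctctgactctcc
The element begins 110 bases before the start of Ucn and 142 bases before that of Cartpt, and the half-site 79 bases before that of Gabra6. Searched on both strands, TGACGTCA was in 531 of 33469 rat promoter windows of this length (1.59%) and TTGGCA in 4022 (12%). Of the 19 neuropeptide-list names with a promoter entry, Cartpt, Ucn and Vgf held TGACGTCA and 0 held TTGGCA. Of 3 granule neuron genes with an entry, 0 held TGACGTCA and 1, Gabra6, held TTGGCA. Among the 20 genes chosen below for the smallest p, 13 had an entry. Of these, 0 held TGACGTCA and 1, Napb, held TTGGCA. These matches describe the letters in the window and say nothing of binding.

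No transcript of the PAG passed the test between FT and Sham in edgeR. Of 13257 transcripts tested, 0 were called in either direction (0% of those tested, at an adjusted p of at most 0.1 and an absolute log2FC of at least 0.32) and the smallest adjusted p was 0.253. At an unadjusted p under 0.05 there were 1769, of which 862 were higher (6.5%) and 907 lower (6.84%). DESeq2 on the same counts with the same block called 137 transcripts higher (1.15% of 11952) and 131 lower (1.1%). Among named transcripts it called 92 higher (5.06%) and 82 lower (4.51%). A gene said below to be called was called by DESeq2 alone, and its edgeR adjusted p was 0.253 or more, except for Ucn, which edgeR did not test. These calls depend on single pairs: DESeq2 called 168, 557, 13 and 44 transcripts without replicates 1, 3, 4 and 5, of which 103, 227, 11 and 34 were among the 268.

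Across all tested transcripts, 1369 (10.3%) were higher in FT in 4 of 4 pairs and 1416 (10.7%) lower. For named transcripts these shares were 17.1% and 13.5%. Every FT library exceeded every Sham library for 111 transcripts (0.837%) and was below every Sham library for 92 (0.694%). The differences of pairs 4 and 5 correlated at r = 0.547 over 13257 transcripts, while pair 1 had r = 0.152 with pair 4 and 0.121 with pair 5, and pair 3 had r from -0.007 to 0.074 with the others. Transcripts are not independent replicates, so these r describe the libraries only. P-values of the fits rest on the differences that remain between these pooled samples after the replicate block. Those of marker totals come from sign flips over 4 pairs, and neither kind covers the spread between single rats.

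Genes of cerebellar granule neurons were higher in FT in every pair. All 5 named members of the list, Gabra6, Cbln1, Cbln3, Gabrd and Neurod1, were higher in 4 of 4 pairs, beside 17.1% of named transcripts. Their median log2FC was 0.98, beside 0.08 for the 1827 named transcripts tested. The list was written with earlier results of these data known, so its shares and its p below are a description. Cbln1 is also among the genes chosen for the smallest p on this contrast. Beside 5.06% of named transcripts, DESeq2 called 4 of the 5 higher. Their summed CPM was 388, 421, 332 and 169.8 in Sham and 609, 629, 544 and 704 in FT, a mean log2 ratio of 0.998 ± 0.704 (SD, n = 4 pairs), with an exact sign-flip p of 0.125, the smallest that 4 pairs allow. Pair 5 had the largest ratio, and without replicate 5 the mean was 0.647 ± 0.067 (SD, n = 3 pairs) and the log2FC of Gabra6 was 0.74. The part of granule neuron tissue in the other gene results was not tested.

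Gabra6 was at 83.2, 105, 139 and 57.4 CPM in Sham and 148, 145, 256 and 287 CPM in FT, and DESeq2 called it higher (log2FC 1.12 ± 0.29 SE, adjusted p = 0.253 in edgeR and 0.0409 in DESeq2). The groups did not overlap, and the largest difference was in pair 5. Before TMM scaling, as CPM of the library total, Gabra6 was at 90.3, 43.3, 203 and 88.6 in Sham and 172, 54.8, 402 and 405 in FT, so the groups overlapped while each pair kept its direction. Cbln1, a secreted synapse organiser that granule neurons release onto Purkinje cells, was at 93, 71, 77.8 and 43.6 CPM in Sham and 185, 136, 140.5 and 193 in FT (log2FC 1.23 ± 0.24 SE, adjusted p = 0.253 in edgeR and 0.00624 in DESeq2). Its groups did not overlap either. Cbln3, which assembles with Cbln1, was at 9.89, 19.4, 21 and 6.96 CPM in Sham and 21.6, 28.5, 26.2 and 23.4 in FT (log2FC 0.95 ± 0.26 SE, adjusted p = 0.253 in edgeR and 0.0977 in DESeq2). Gabrd, the extrasynaptic delta subunit that pairs with Gabra6 in granule neurons, was at 51.2, 51.6, 28.7 and 18.3 CPM in Sham and 91.8, 103, 33.3 and 66.5 in FT (log2FC 0.98 ± 0.25 SE, adjusted p = 0.253 in edgeR and 0.0634 in DESeq2), and its groups overlapped. Neurod1, a transcription factor of granule and other neurons, was at 151, 174, 65.2 and 43.6 CPM in Sham and 162, 216, 87.2 and 134 in FT, a smaller difference that DESeq2 did not call (log2FC 0.61 ± 0.26 SE, adjusted p = 0.36 in edgeR).

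A pair of glutamate receptor genes that granule neurons also express was higher in FT in every pair as well. Grin2c, an NMDA receptor subunit abundant in cerebellum, was at 24.9, 22.8, 16 and 17.6 CPM in Sham and 36.4, 41.5, 27.5 and 43.5 in FT and was called higher, with no overlap of the groups (log2FC 0.88 ± 0.18 SE, adjusted p = 0.253 in edgeR and 0.0264 in DESeq2). Grm4, a presynaptic metabotropic receptor, was at 35.5, 52.1, 3.77 and 13.2 CPM in Sham and 39.1, 83, 6.96 and 19.9 in FT. It was higher in each pair but not called (log2FC 0.56 ± 0.18 SE, edgeR adjusted p = 0.293). The Grin2c difference was not particular to PAG. As CPM of the library total, its FT median was above its Sham median in every region but LC and SNT. In VTA, where the Sham median of Gabra6 was 0.16, Grin2c had medians of 8.6 in Sham and 16.95 in FT. Grm4 varied between regions, with medians of 1.73 in Sham and 5.48 in FT in VTA, and 9.92 and 8.5 in raphe. Grm4 and Neurod1 were named after their values were seen.

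**Figure D2:**
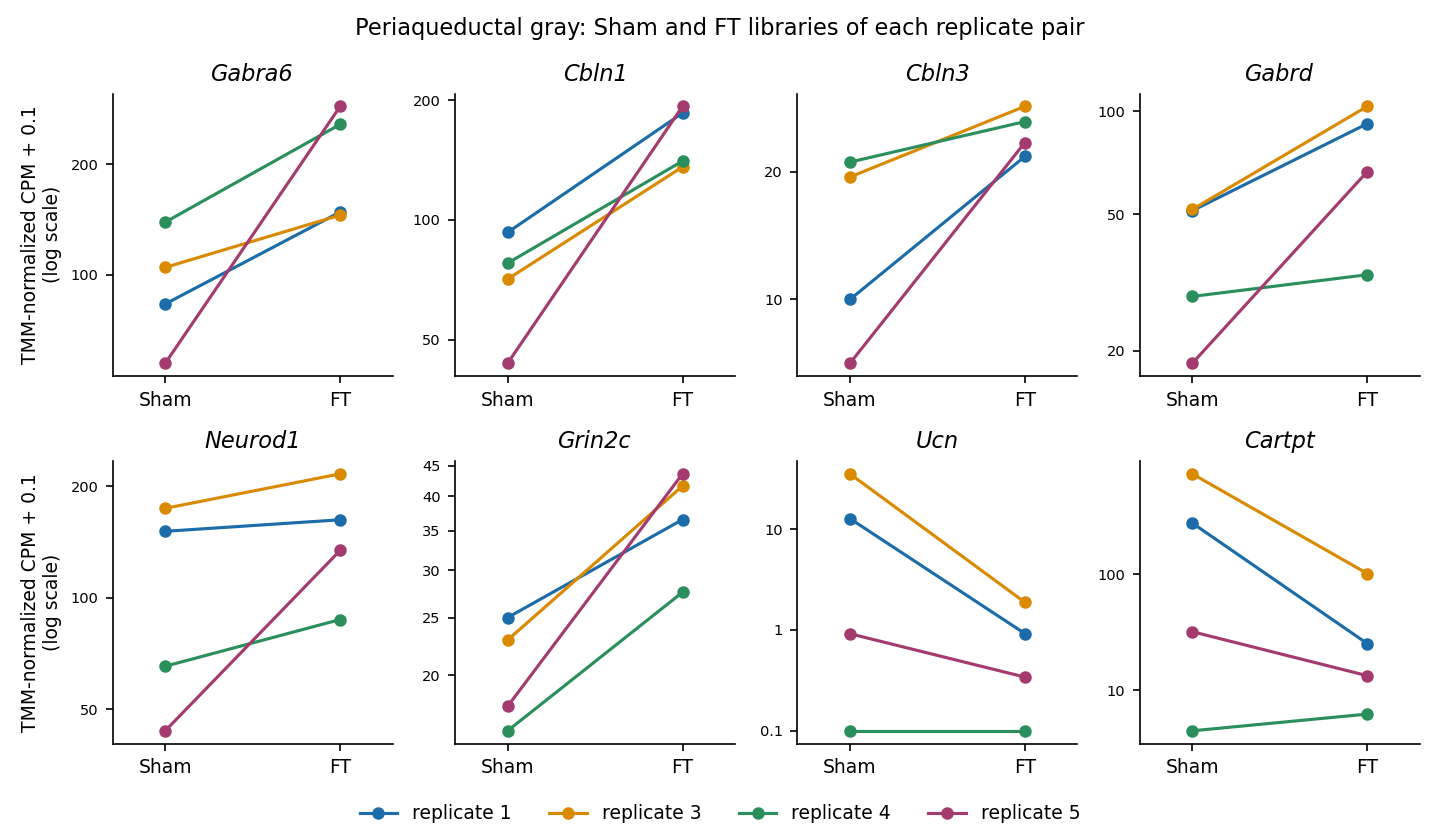
TMM-scaled CPM of 8 genes in Sham and FT libraries of PAG, on log axes after adding 0.1, with a line joining each replicate pair. The 5 granule neuron genes and Grin2c go up along every line, Ucn goes down in the 3 pairs with counts, and Cartpt goes down in 3 of 4 pairs.

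Of the peptide genes of the Edinger-Westphal neurons, Ucn was called lower and Cartpt was not called. Ucn, the stress peptide urocortin, had 74, 71, 0 and 24 counts in Sham and 11, 3, 0 and 3 in FT, a total of 169 against 17. Replicate 4 held no Ucn count in either group, and in the other 3 pairs FT was lower. DESeq2 called it lower (log2FC -3.37 ± 0.64 SE, adjusted p = 0.000383), and edgeR's filter on low counts removed it. Cartpt, the CART peptide precursor, was at 276, 734, 4.37 and 31.9 CPM in Sham and 25.2, 101, 6.13 and 13.2 in FT (log2FC -1.88 ± 0.58 SE, adjusted p = 0.277 in edgeR and 0.253 in DESeq2). Neither tool called it, and FT was the higher library in pair 4. Counts of Ucn in raphe, which borders PAG, were 223, 61, 2 and 4 in Sham and 29, 28, 0 and 0 in FT, and Cartpt there had a log2FC of -0.62 ± 0.36 SE. Raphe and PAG libraries of a replicate came from the same pools of animals, so the values of the 2 regions are not independent.

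Other peptide genes differed less. Of 19 tested members of the neuropeptide list, 0 were higher and 1, Pcsk2, was lower in 4 of 4 pairs, beside 17.1% and 13.5% of named transcripts. Pcsk2, a convertase that cuts peptide precursors, was at 51.3, 57.5, 26.4 and 39 CPM in Sham and 34.2, 53.4, 11.6 and 16.8 in FT (log2FC -0.79 ± 0.22 SE, adjusted p = 0.253 in edgeR and 0.11 in DESeq2). Chga, chromogranin A of dense-core vesicles, was lower in 3 pairs and near equal in pair 3 (log2FC -0.70 ± 0.24 SE, edgeR adjusted p = 0.297). PENK, the enkephalin precursor, was the main opioid gene with a name here. It was at 147, 108, 59.5 and 137 CPM in Sham, lower in FT in 3 of 4 pairs and not called (log2FC -0.41 ± 0.27 SE, edgeR adjusted p = 0.529).

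No named gene of monoamine handling passed a test. Of 7 tested members, 0 were higher and 0 lower in 4 of 4 pairs, beside 17.1% and 13.5% of named transcripts. edgeR and DESeq2 called 0, and 0 had an unadjusted edgeR p under 0.05. Th, the first enzyme of catecholamine synthesis, was at 14.8, 15.9, 6.29 and 12.2 CPM in Sham and 14.5, 8.3, 12.6 and 5.62 in FT (log2FC -0.21 ± 0.36 SE, edgeR adjusted p = 0.831). Qdpr, which recycles the cofactor of serotonin and dopamine synthesis, had a log2FC of -0.02 ± 0.18 SE. Htr1a, the serotonin autoreceptor, was removed by edgeR's filter on low counts, and DESeq2 did not call it. It had 11, 0, 9 and 50 counts in Sham and 8, 0, 1 and 1 in FT, and its CPM was lower in FT in pairs 1, 4 and 5. It was the sole serotonin neuron marker with a name here, and replicate 3 held no count of it in either group.

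GABA and glycine genes had members in both directions, and the 2 higher ones, Gabra6 and Gabrd, are the granule neuron genes given above. The part of granule neuron tissue in this difference between members was not tested. Of 9 tested members, Gabra6 and Gabrd were higher in 4 of 4 pairs and 5 were lower, beside 17.1% and 13.5% of named transcripts, and the median log2FC was -0.70. Gabrb1, a beta subunit of GABA-A receptors, was at 22.7, 18.9, 23.1 and 33.9 CPM in Sham and 8.89, 15.4, 13.1 and 16.3 in FT and was called lower, without overlap (log2FC -0.93 ± 0.21 SE, adjusted p = 0.253 in edgeR and 0.0423 in DESeq2). Gabrg1, a gamma subunit, was at 15.2, 29.3, 23.8 and 18.8 CPM in Sham and 7.24, 23.1, 9.91 and 7.87 in FT and was called lower, although replicate 3 of FT lay within the Sham range (log2FC -1.02 ± 0.22 SE, adjusted p = 0.253 in edgeR and 0.0215 in DESeq2). Gabrb2, Gabra3 and the glycine receptor Glra1 were lower in each pair without a call, with log2FC of -0.65 ± 0.23, -0.70 ± 0.29 and -0.94 ± 0.31 SE. Gad2, the enzyme that makes GABA for release, was at 33.3, 41.2, 46 and 39.6 CPM in Sham and 37, 44.5, 29 and 26 in FT, higher in pairs 1 and 3 and lower in pairs 4 and 5. The GABA transporter Slc6a11 divided the pairs the same way and more widely, with pair log2 ratios of 0.37, 1.22, -1.56 and -3.00.

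Of 13 tested glutamate genes, 11 had a log2FC below 0, and the median was -0.73. The exceptions were Grin2c and Grm4, given above after the granule neuron genes. In 4 of 4 pairs 2 were higher and 5 lower (38.5%), beside 17.1% and 13.5% of named transcripts. DESeq2 called 1 higher and 1 lower, beside 5.06% and 4.51%. Slc17a6, which fills synaptic vesicles with glutamate in PAG neurons, was at 111, 146, 213 and 207 CPM in Sham and 109, 108, 124 and 95.8 in FT, lower in each pair and near equal in pair 1 (log2FC -0.59 ± 0.21 SE, adjusted p = 0.307 in edgeR and 0.217 in DESeq2). Dlg4, the postsynaptic scaffold PSD-95, was at 11.9, 45.1, 7.09 and 11.4 CPM in Sham and 4.63, 41.5, 3.42 and 3.29 in FT and was called lower (log2FC -1.08 ± 0.28 SE, adjusted p = 0.253 in edgeR and 0.0634 in DESeq2). Replicate 3 of FT was far above the other FT libraries, so the groups overlapped. GRIN3A, an NMDA receptor subunit, had groups that did not overlap, at 5.63, 5.46, 9.6 and 8.53 CPM in Sham and 2.69, 2.37, 4.48 and 4.82 in FT, without a call (log2FC -1.01 ± 0.26 SE, adjusted p = 0.253 in edgeR and 0.119 in DESeq2). Grm7, a presynaptic receptor, was at 4.09, 4.47, 15.1 and 14 CPM in Sham and 1.94, 2.96, 8.73 and 5.62 in FT. Grm3, a receptor of glia and neurons, had a log2FC of -0.73 ± 0.25 SE and was near equal in pair 3.

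**Figure D3:**
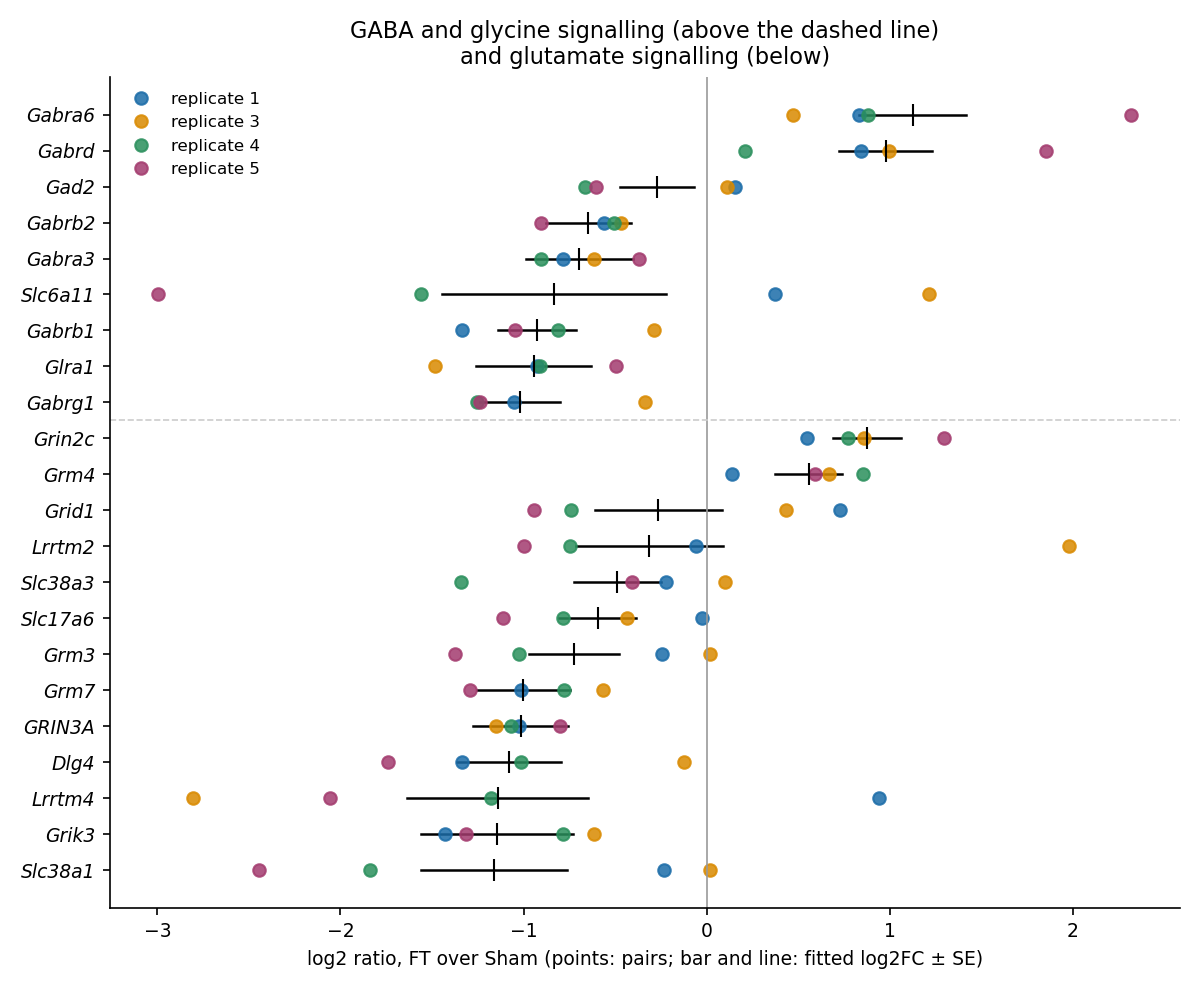
Log2 ratios of FT to Sham in each replicate pair (points) for the tested GABA, glycine and glutamate genes, with the edgeR log2FC and its SE. Gabra6, Gabrd, Grin2c and Grm4 lie above 0 in all 4 pairs, while most other members lie below 0.

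Most ion channel genes with a call were lower. Of 21 tested, 1 was higher and 5 lower (23.8%) in 4 of 4 pairs, beside 17.1% and 13.5% of named transcripts. DESeq2 called 1 higher and 4 lower, beside 5.06% and 4.51%. Kcna2, an axonal potassium channel, was at 3.41, 11.4, 4.97 and 4.06 CPM in Sham and 0.373, 7.71, 0.944 and 0.803 in FT (log2FC -2.08 ± 0.44 SE, adjusted p = 0.253 in edgeR and 0.00867 in DESeq2). Kcnk9, a leak potassium channel, was at 3.92, 46.6, 6.69 and 3.48 CPM in Sham and 0.672, 33.2, 0.413 and 0.241 in FT (log2FC -2.38 ± 0.56 SE, adjusted p = 0.253 in edgeR and 0.00227 in DESeq2). Both were called and were lower in each pair, least in pair 3, where levels were highest. Kcnj10, the potassium channel of astrocytes, was called lower, at 1.71, 2.98, 5.1 and 4.19 CPM in Sham and 0.149, 2.37, 1.36 and 0 in FT (log2FC -2.68 ± 0.76 SE, adjusted p = 0.26 in edgeR and 0.043 in DESeq2). Hcn2, a pacemaker channel, was called lower with 3 of 4 pairs in that direction (log2FC -1.22 ± 0.34 SE). Kcnab3, a beta subunit of potassium channels, was the gene called higher, at 8.19, 5.46, 10.7 and 13 CPM in Sham and 20.1, 5.34, 19.3 and 35 in FT, with pair 3 near 0 (log2FC 1.05 ± 0.25 SE, adjusted p = 0.253 in edgeR and 0.0502 in DESeq2).

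Most synaptic vesicle genes had a log2FC below 0, and their most abundant member had one above it. Of 15 tested, 1 was higher and 5 lower (33.3%) in 4 of 4 pairs, beside 17.1% and 13.5% of named transcripts. DESeq2 called 4 lower, beside 4.51% of named transcripts. Syp, the vesicle protein synaptophysin, was at 974, 1020.1, 589 and 493 CPM in Sham and 1588, 1101, 829 and 879 in FT, higher in each pair without a call (log2FC 0.54 ± 0.21 SE, edgeR adjusted p = 0.326). Napb, which helps take apart fusion complexes, was at 13.1, 31.8, 29.8 and 23.5 CPM in Sham and 2.61, 24.9, 7.14 and 3.37 in FT (log2FC -1.93 ± 0.36 SE, adjusted p = 0.253 in edgeR and 0.00132 in DESeq2). Amph, an endocytosis protein, and Syt5, a calcium sensor of vesicles, were called lower with log2FC of -1.17 ± 0.27 and -0.86 ± 0.23 SE.

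Sncg, gamma-synuclein of large projection neurons, was at 103, 125, 22.6 and 61.5 CPM in Sham and 48.7, 77.1, 9.79 and 22.8 in FT. Its pair log2 ratios were -1.08, -0.70, -1.19 and -1.43, and it was called lower (log2FC -1.11 ± 0.17 SE, DESeq2 adjusted p = 0.000383). Nefh, the heavy neurofilament of the same kind of neuron, was called lower, at 202, 256, 78.8 and 159 CPM in Sham and 125, 189, 50.1 and 83.6 in FT (log2FC -0.68 ± 0.17 SE, adjusted p = 0.253 in edgeR and 0.0277 in DESeq2). In both genes the Sham and FT levels overlapped across replicates, while each FT library was below its own Sham partner.

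The 10 higher and 10 lower genes with the smallest p among those with 4 of 4 pairs in the same direction span many functions. They were chosen on this contrast, so their values are a description. All 20 were called by DESeq2, with edgeR unadjusted p from 0.000106 to 0.000846. In 17 of the 20 the largest pair ratio was in pair 5, and in 13 the smallest was in pair 3. Among those higher, Mpp3, a membrane scaffold protein, was at 39.1, 33.7, 39 and 30.9 CPM in Sham and 64.6, 71.2, 73.8 and 84.5 in FT, and Cdk4, a cell cycle kinase, at 31.7, 27.3, 28.8 and 33.8 CPM in Sham and 48.2, 42.7, 59.2 and 91.6 in FT. The groups were apart for both, and also for Rasl11b and Cbln1. In contrast, Tube1, epsilon-tubulin, was at 1.36, 2.98, 12.4 and 14.4 CPM in Sham and 2.02, 3.56, 71.5 and 221 in FT, with pair log2 ratios of 0.51, 0.24, 2.51 and 3.93 behind its log2FC of 2.63 ± 0.54 SE. The other higher genes were Vmo1, Ccne2, Adck4, Il16 and Eif2b1, with log2FC from 0.88 to 2.43.

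Of the lower genes, APEG3 had the smallest p, at 51.3, 108, 92.6 and 80.0 CPM in Sham and 26.5, 57.5, 46.4 and 32.6 in FT, with even pair ratios of -0.95, -0.91, -0.99 and -1.29. Tmem255a, a membrane protein, was at 3.41, 2.98, 12.8 and 13.2 CPM in Sham and 0.523, 1.78, 2.6 and 1.12 in FT, with groups apart. Smim17 and Arhgap36 were also apart, with log2FC of -1.81 ± 0.33 and -1.79 ± 0.35 SE. Gpr165, an orphan receptor, was at 10.1, 42.7, 23.2 and 18.4 CPM in Sham and 1.94, 31.4, 3.6 and 1.36 in FT, again with little difference in pair 3. Enc1, an actin-binding neuronal protein, and Tulp4 had log2FC of -1.04 ± 0.20 and -1.37 ± 0.24 SE. Rps15al4, named as a copy of a ribosomal protein gene, had -1.44 ± 0.28 SE and may share reads with its relatives.

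**Figure D4:**
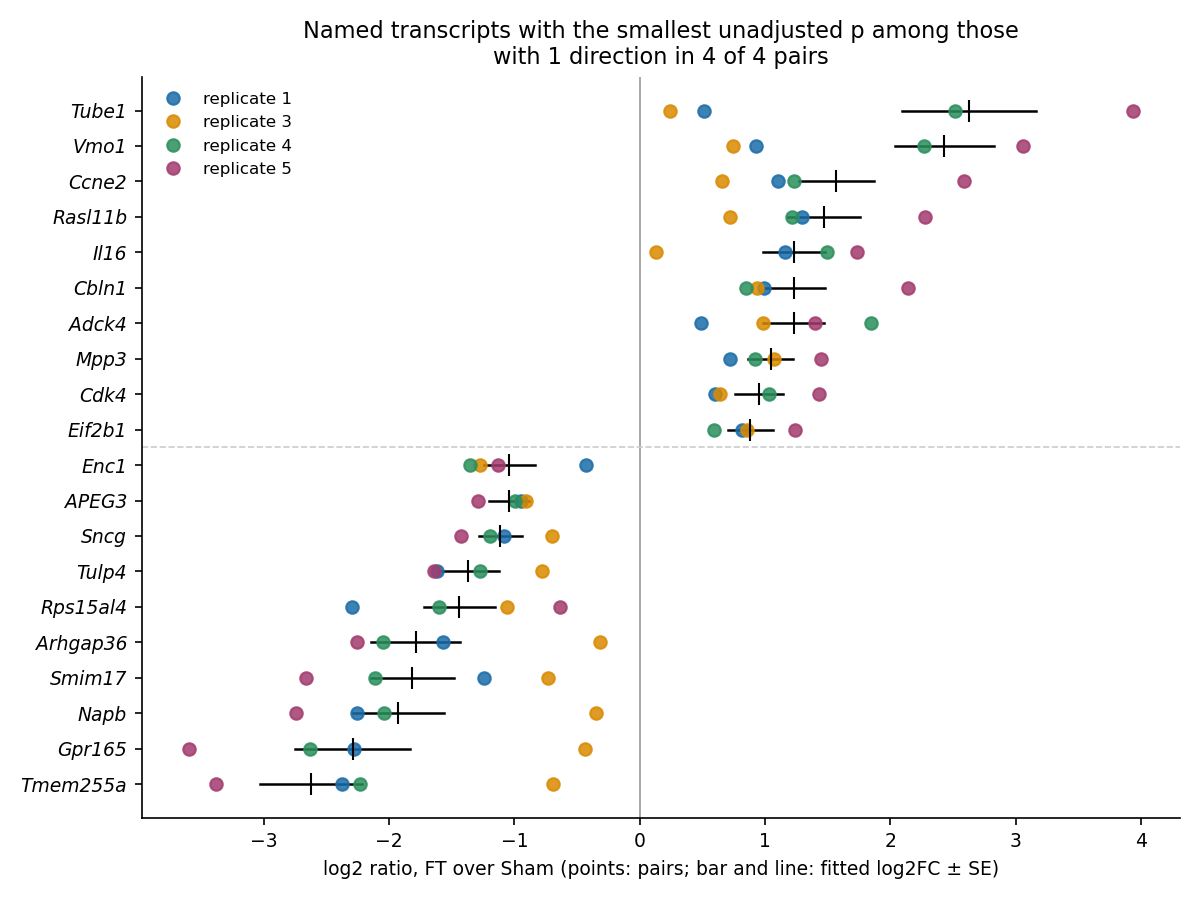
Log2 ratios of FT to Sham in each replicate pair for the 10 higher and 10 lower genes chosen for the smallest p, with the edgeR log2FC and its SE. All points of a gene lie on 1 side of 0 because the choice required it, and pair 5 gives the largest ratio in 17 of 20 genes.

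Most cytosolic ribosomal protein genes had a log2FC below 0. Of 27 tested, 13 were lower and 0 higher in 4 of 4 pairs, beside 13.5% and 17.1% of named transcripts, and the median log2FC was -0.63. DESeq2 called 8 lower, beside 4.51% of named transcripts. The groups of Rpl41 were at 1984, 2819.6, 669.7 and 431 CPM in Sham and 981, 2205, 329 and 229 in FT (log2FC -0.83 ± 0.21 SE, adjusted p = 0.253 in edgeR and 0.0129 in DESeq2), and both it and Rps19 were called lower. Rps19 was at 1098, 682, 301 and 495 CPM in Sham and 568, 575, 118 and 203 in FT (log2FC -0.96 ± 0.23 SE, adjusted p = 0.253 in edgeR and 0.0167 in DESeq2). The groups overlapped for both genes, and replicates 1 and 3 had higher levels than 4 and 5. Rps14, the most abundant member, was lower in pairs 1 and 3 and higher in pairs 4 and 5 (log2FC -0.14 ± 0.24 SE). Ribosomal protein genes have many pseudogene copies, so their counts are uncertain.

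Of 25 genes of the mitochondrial ribosome, 6 were higher (24%) and 3 lower (12%) in 4 of 4 pairs, near the 17.1% and 13.5% of named transcripts, with a median log2FC of 0.27. DESeq2 called Mrpl51 higher (log2FC 1.53 ± 0.45 SE, adjusted p = 0.26 in edgeR and 0.043 in DESeq2) and Mrpl2 lower (log2FC -1.19 ± 0.28 SE, adjusted p = 0.253 in edgeR and 0.0246 in DESeq2). Mrpl51 was at 33.6, 23.3, 199 and 194 CPM in Sham and 73, 20.2, 663 and 1637 in FT, with pair 3 opposite to the rest. Nuclear genes of the respiratory chain, 35 tested, had 3 higher (8.57%) and 0 lower in 4 of 4 pairs, beside 17.1% and 13.5% of named transcripts. edgeR and DESeq2 called 0 of them. At an unadjusted edgeR p under 0.05 there were 1 higher and 0 lower, beside 328 and 306 of the 1827 named transcripts. The 8 mitochondrial genes with a name here had 0 higher and 1 lower (12.5%) in 4 of 4 pairs, near the 13.5% of named transcripts.

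Chromatin genes had shares near those of named transcripts. Of 38 tested, 8 were higher (21.1%) and 7 lower (18.4%) in 4 of 4 pairs, beside 17.1% and 13.5% of named transcripts, with a median log2FC of 0.01. DESeq2 called 3 higher and 1 lower, beside 5.06% and 4.51%. Trim28, a co-repressor that recruits histone methylation, was at 84.3, 75.9, 85.8 and 84.8 CPM in Sham and 126, 104, 253 and 586 in FT, and was called higher, without overlap (log2FC 1.35 ± 0.37 SE, adjusted p = 0.253 in edgeR and 0.0356 in DESeq2). Setdb1, the methyltransferase that works with Trim28, and Brpf1, a reader in an acetyltransferase complex, were called higher with log2FC of 1.04 ± 0.28 and 1.04 ± 0.27 SE. The pair ratios of all 3 genes were largest in pairs 4 and 5. Dmap1 was called lower (log2FC -1.04 ± 0.30 SE), and Sirt2, a deacetylase of oligodendrocytes, was lower in each pair without a call (log2FC -0.75 ± 0.30 SE, edgeR adjusted p = 0.341). Otub1, a deubiquitinase, was called higher, at 519.7, 320.0, 230.1 and 507 CPM in Sham and 1018, 359, 545 and 1754 in FT (log2FC 1.05 ± 0.27 SE, adjusted p = 0.253 in edgeR and 0.0264 in DESeq2).

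Activity and clock genes were few. Of 5 tested, Fos and Cirbp were higher in 4 of 4 pairs (40%) and 0 were lower, beside 17.1% and 13.5% of named transcripts. edgeR and DESeq2 called 0. At an unadjusted edgeR p under 0.05 there were 3 higher and 0 lower, beside 328 and 306 of the 1827 named transcripts. Fos, the immediate early gene of active neurons, was at 19.3, 13.9, 12.1 and 13.4 CPM in Sham and 20.2, 17.2, 38.6 and 29.1 in FT (log2FC 0.85 ± 0.28 SE, edgeR adjusted p = 0.293). Cirbp, an RNA-binding protein induced by cold, was at 167, 88.3, 88.9 and 138 CPM in Sham and 191, 97.8, 291 and 1804 in FT, with its largest ratio in pair 5 (log2FC 1.40 ± 0.56 SE). Ntrk2, the receptor for the growth factor BDNF, had groups that did not overlap, at 105, 103, 124 and 149 CPM in Sham and 92.7, 82.4, 74 and 55.6 in FT, without a call (log2FC -0.67 ± 0.23 SE, adjusted p = 0.298 in edgeR and 0.19 in DESeq2). The mineralocorticoid receptor Nr3c2 was lower in each pair and near equal in pair 3 (log2FC -0.60 ± 0.34 SE, edgeR adjusted p = 0.465).

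Markers of other cell types were summed per library. Oligodendrocyte markers summed to between 1248 and 2233 CPM in Sham and between 961 and 1684 in FT, lower in 3 of 4 pairs (mean log2 ratio -0.484 ± 0.571 SD, exact p = 0.25). DESeq2 called 1 of 19 tested members, Aspa, an enzyme of myelin lipid supply, lower (log2FC -0.75 ± 0.18 SE, adjusted p = 0.253 in edgeR and 0.071 in DESeq2). Among named transcripts 4.51% were called lower. Astrocyte markers were lower in 3 of 4 pairs (-0.318 ± 0.382, exact p = 0.25). The astrocyte sum in replicate 3 was 26617 CPM in Sham and 29478 in FT. Other libraries were between 2034 and 6353 in Sham and between 1178 and 5023 in FT. Of 12 tested, Kcnj10 and Mt3 were called lower, beside 4.51% of named transcripts. Mt3 had the most counts of the list. Apoe had the highest mean CPM, carried by replicate 3, and was not called (log2FC -0.14 ± 0.25 SE). Mt3, a metal-binding protein of brain, was at 2843, 7719, 881 and 648 CPM in Sham and 1974, 7025, 302 and 232 in FT.

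Microglia markers were higher in 4 of 4 pairs (mean log2 ratio 0.58 ± 0.455 SD, exact p = 0.125), with sums between 106 and 153 CPM in Sham and between 145 and 249 in FT, while C1qa, a complement gene of microglia, was nearly level (log2FC 0.03 ± 0.16 SE). Endothelial and mural markers were also higher in 4 of 4 pairs, by a small amount (0.147 ± 0.058, exact p = 0.125). Slc5a7, the sole cholinergic marker with a name here, was lower in 4 of 4 pairs (-0.534 ± 0.188, exact p = 0.125). Ependymal markers split at 2 of 4 pairs (0.362 ± 0.611, exact p = 0.5). The totals of neuron, blood, dopaminergic and forebrain markers had mean log2 ratios of -0.009, -0.071, -0.296 and 0.016, each with an exact p of 0.625 or more. CAMK2A, one of the forebrain genes, was called lower without overlap, at 7.33, 7.94, 10.5 and 17.2 CPM in Sham and 2.54, 6.52, 4.6 and 5.14 in FT (log2FC -1.29 ± 0.28 SE, adjusted p = 0.253 in edgeR and 0.023 in DESeq2). The part of any of these cell types in the gene results was not tested.

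**Figure D5:**
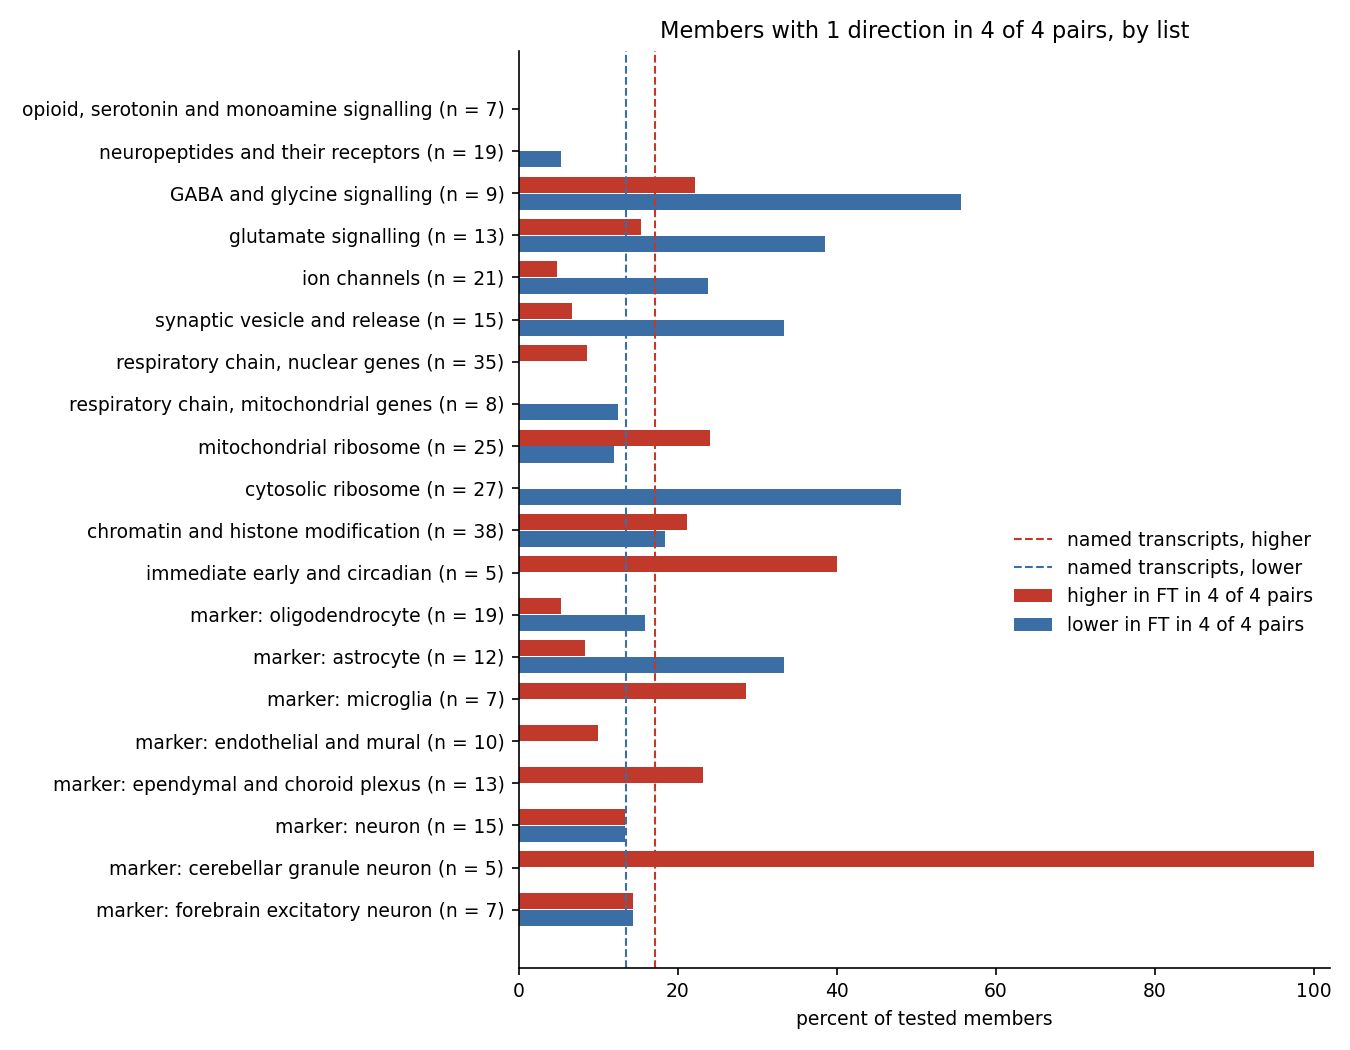
Share of the tested members of each gene list with 5 or more members that were higher or lower in FT in 4 of 4 pairs, with dashed lines at the shares for all named transcripts, 17.1% and 13.5%. The granule neuron list stands at 100% higher, and the cytosolic ribosome list at 48.1% lower and 0% higher. The lists were written with earlier results of these data known.

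The difference in the FT effect between PAG and neighbouring regions was tested as an interaction, with PAG, raphe and VTA libraries of a replicate drawn from the same pools of animals. edgeR called 0 of 13925 transcripts between PAG and raphe, with 611 at an unadjusted p under 0.05, and 0 of 14109 between PAG and VTA, with 984. DESeq2 called 1 transcript lower in PAG than in raphe (0.00409% of 24451), an unnamed one, and 8 higher (0.0883% of 9061) and 21 lower (0.232%) than in VTA. Nefh and Sncg led the last group, with differences of -1.36 ± 0.24 and -1.56 ± 0.30 SE (DESeq2 adjusted p = 0.000151 and 0.00112). These calls depend on single replicates, since DESeq2 called 0 transcripts between PAG and VTA without replicate 1, 4 or 5 and 11 without replicate 3. Sncg had log2FC of -1.11 ± 0.17 in PAG, -0.43 ± 0.21 in raphe and 0.51 ± 0.22 in VTA, and Nefh -0.68 ± 0.17 in PAG, -0.22 ± 0.20 in raphe and 0.73 ± 0.22 in VTA. Cacnb4, a calcium channel subunit, differed by 0.88 ± 0.22 SE (DESeq2 adjusted p = 0.0396), with 0.03 ± 0.16 in PAG, -0.34 ± 0.22 in raphe and -0.78 ± 0.18 in VTA. The granule neuron genes gave no call between regions, and Cbln1 had log2FC of 1.23 ± 0.24 in PAG, 0.31 ± 0.32 in raphe and 0.33 ± 0.17 in VTA. Gabra6 had 1.12 ± 0.29 in PAG and 2.15 ± 0.60 in raphe, where its levels were low, and was too low to test in VTA. In LC, which ranked next to PAG for its Gabra6 level, the genes Cbln3, Gabrd and Neurod1 were lower in FT in 4 of 4 pairs, opposite to PAG, and the difference between the regions was not tested. Gabrd there was at 53.8, 14.5, 23.5 and 6.92 CPM of the library total in Sham and 10.1, 1.78, 5.31 and 4.5 in FT, and Gabra6 was higher in FT in pairs 1 and 5 and lower in pairs 3 and 4.

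A microRNA gene was named after its values were seen. Mir130a had 4, 0, 47 and 94 counts in Sham and 19, 0, 266 and 439 in FT. It was called higher by DESeq2 (log2FC 2.66 ± 0.44 SE, adjusted p = 0.253 in edgeR and 0.00753 in DESeq2), and replicate 3 held no count in either group. These reads were counted on the annotated transcript and do not measure the mature microRNA. The mature sequence from RefSeq, and the other 2 rat entries with its seed (bases 2 to 8, in capitals) among 724, are printed to show what the gene would make.
rno-miR-130a-3p: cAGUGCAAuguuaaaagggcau
rno-miR-130b-3p: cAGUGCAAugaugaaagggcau
rno-miR-301b-3p: cAGUGCAAugguauugucaaagc
The genes of miR-130b and miR-301b were not analysed by name here.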

How the data were processed

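The 8 PAG libraries, 4 FT and 4 Sham, were grouped by their labels. The authors aligned reads to rn5 with STAR, after FastQC, and deposited HTSeq read counts per transcript without normalization. The strand setting of the counting is not given in the sources used here, so overlapping genes may share reads. The last 5 summary lines of each file were left out of tests. Total counts per library ranged from 4472503 to 19003719, and counting error limits transcripts with few reads.

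edgeR 4.0.16 in R 4.3.3 was used with TMM, filterByExpr (minimum count 10, minimum total 15), a block for each replicate number, and its quasi-likelihood test adjusted by Benjamini-Hochberg over all tested transcripts. A call needed an adjusted p of at most 0.1 and an absolute log2FC of at least 0.32, the fold limit of the study. The SE is the absolute log2FC over the square root of F. DESeq2 1.42.0 with the same block was the alternative tool. Pair ratios used log2 CPM with a prior count of 2. Marker totals were tested by exact two-sided sign flips over pairs. Both tools were tested on simulated data with known changes in well-counted transcripts. In the PAG comparison edgeR called 59 and DESeq2 63 of 100 transcripts changed by an absolute log2FC of 1. At an absolute log2FC of 2 they called 99 and 100 of 100. Of unchanged transcripts edgeR called 15 and DESeq2 26. For the difference from raphe they called 15 and 28 of 100 at an absolute log2FC of 1. Python 3.11.15, pandas 2.3.3 and matplotlib 3.10.9 did the rest.

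The study's methods enter replicate numbers as batches and process FT and Sham of a replicate together. Deviations from the group means correlated within numbers at r = 0.628, 0.757, 0.836 and 0.561. Across numbers r ran from -0.682 to 0.626, and numbers 4 and 5 correlated with each other at 0.588 and 0.626, above the 0.561 within number 5.

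The members and the gene lists were chosen with earlier results of these data known. Genes named were the 10 higher and the 10 lower with the smallest p among those alike in 4 of 4 pairs, the most abundant member and up to 4 members with p under 0.05 of each list, and a set of genes named whatever their values. Other members are given as examples, chosen after their values were seen. The single values of 2 genes are not reported here. Alternatives tried were DESeq2, unpaired fits, scaling by median-ratio size factors, all transcripts without filtering, a stricter adjusted p, another quasi-likelihood version and each replicate left out.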

Additional observations from a re-analysis of the deposited data

Results flagged for a closer look

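Within a group of 4 libraries, a library far from the other 3 by Dixon's test was looked for in 226 groups of values, and 12 passed its critical value for 4 samples, where chance gives about 1 in 20. In replicate 3 the FT library held 74.863% of its counts on its 50 most abundant transcripts, against 26.371% to 32.606% in the other FT libraries. Replicate 3 was also the distant library, in log2 CPM, for Dlg4 in FT at 5.381 (others 1.789 to 2.261), Kcnk9 in FT at 5.061 (others -1.3 to -0.256), Chd3 in Sham at 5.104 (others 3.731 to 3.956) and in FT at 4.682 (others 2.889 to 3.156), and Tppp in FT at 2.864 (others 1.118 to 1.318). It was low for Trim28 in Sham at 6.249 (others 6.4 to 6.426) and for Apod in Sham at 9.1 (others 9.859 to 9.993).

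Replicate 4 was low in Sham for Sirt2 at 3.787 (others 6.521 to 7.041) and Rasip1 at 3.514 (others 3.688 to 3.715). Replicate 1 was low for Nr3c2 in Sham at 0.766 (others 2.353 to 2.613) and for Erbb3 in FT at 0.362 (others 0.959 to 1.037). The cause was not tested for any of them.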

How the results depend on the processing

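In PAG edgeR called 0 transcripts with median-ratio size factors, at an adjusted p of 0.05, under another quasi-likelihood version and without any 1 replicate, and 945 (525 higher, 420 lower) without the low-count filter, against 268 in DESeq2. The older quasi-likelihood version that was planned as an alternative is the one used. Without the replicate block edgeR and DESeq2 each called 0. DESeq2 called 13 to 557 with 1 replicate left out, the fewest without replicate 4 and the most without replicate 3. Between PAG and raphe edgeR called 21 without the filter and 0 to 6 with 1 replicate left out, the 6 without replicate 5, while DESeq2 called 1 with all pairs and 0 to 42 with 1 left out. Between PAG and VTA edgeR called 88 without the filter and 0 with any replicate left out, while DESeq2 called 29 with all pairs and 0 to 11 with 1 left out. The DESeq2 runs with replicates left out or without the block and the other quasi-likelihood version were chosen after seeing the data.

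Of 99 genes named and tested, 95 kept the sign of their log2FC without the block. The others became positive, at 0.079 (Qdpr), 0.232 (Pcsk1n), 0.217 (Apoe) and 0.139 (Hpca). Hpca, near 0 throughout, was also at 0.011 in DESeq2, 0.003 with median-ratio factors, 0.007 without the filter and 0.001 in the other version. With 1 replicate left out, log2FC ranged from -0.164 to 0.069 for Qdpr, -0.457 to 0.304 for Pcsk1n, -0.007 to 0.047 for Cacnb4, -0.326 to 0.011 for Rps14, -0.669 to 0.16 for Th and -0.242 to 0.378 for Hpca. With 1 replicate left out, the mean log2 ratio of marker totals ranged from -0.236 to 0.093 for blood, -0.046 to 0.081 for neurons, -0.71 to 0.023 for dopaminergic neurons and -0.115 to 0.2 for forebrain neurons, and the blood total was at 0.038 without its most abundant member. The cause was not tested.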
